A study of Mus musculus with 21 samples.

Results

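A set of 10 Kruppel-like factor genes were followed across the 21 libraries of a mouse CRISPR activation study: Klf2, Klf3, Klf4, Klf5, Klf6, Klf7, Klf9, Klf10, Klf13 and Klf16. They were taken by gene symbol, and the set was chosen by measured values: the CPM of Klf6 in guide-treated and control Neuro2a cultures, which show one of the most consistent differences there. That contrast is therefore described for these genes and not tested. Of the 10 genes, 9 have a row in both tables of levels, the Neuro2a one with 31553 features and the mouse one with 39008. Klf13 has a row in the mouse table and was not analysed here in Neuro2a.

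The study is about raising the expression of Scn2a, the gene of a neuronal voltage-gated sodium channel, with sadCas9-VP64, a nuclease-dead Cas9 joined to the VP64 activation domain and directed to a site by a guide RNA (sgRNA). Neuro2a is an established mouse neuroblastoma line, in which 6 cultures received 750 ng of sgRNA plasmid and 750 ng of sadCas9-VP64 plasmid (CRISPRa) and 6 received sadCas9-VP64 with no sgRNA (VP64-only). The library names split these cultures into set 7 (replicates 1 to 3 of both groups) and set 8 (replicates 4 to 6 of both groups), and the labels do not say what a set is. NeuN-positive nuclei were sorted from 200 mg of cortex of mice on a C57BL/6J background in 3 groups of 3: WT, Scn2a+/- (Het), and Scn2a+/- with AAV-sadCas9-VP64 and rAAV-Scn2a-sgRNA (Het CRISPRa). The virus, 500 nL, went into the medial prefrontal cortex 4 weeks before use, and no label states an injection for WT and Het mice, or gives an age, a promoter for the transgenes, or whether 1 mouse or a pool made a library. The VP64-only cultures had neither an sgRNA nor its plasmid, so the guide sequence, the plasmid and the amount of DNA cannot be told apart. Nothing in the labels says that replicate cultures were separate transfections, so p-values in Neuro2a measure the spread between these libraries, which may be technical.

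Kruppel-like factors are zinc finger transcription factors that bind GC-rich and CACCC-type DNA sites shared with the Sp proteins, and they differ mainly in the parts outside the fingers, which recruit coactivators or corepressors. In neurons the family is known for its effect on axon growth, where Klf6 and Klf7 promote growth and Klf4 and Klf9 restrain it. Several members are immediate or early responders to growth factors, hormones, stress or injury.

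Promoter sequences are shown for 3 members with unlike values in the library sets: Klf6, with like differences in both sets, the consistency it was chosen for, Klf4, with a difference in set 8, and Klf9, with a lower level in set 7. Klf10 and Klf5, which differed mainly in set 7, are named only. Each is the 250 bases before the gene's start in RefSeq (build GRCm38.p6), 5′ to 3′ on the gene's strand: chr13:5861239-5861488 on the plus strand for Klf6, chr4:55532476-55532725 on the minus strand for Klf4, and chr19:23140976-23141225 on the plus strand for Klf9. Capitals mark matches, on either strand, to GGGCGG (GC box), TGACG (the core of a cAMP response element), TGANTCA (AP-1) and CACGTG (E-box).
Klf6: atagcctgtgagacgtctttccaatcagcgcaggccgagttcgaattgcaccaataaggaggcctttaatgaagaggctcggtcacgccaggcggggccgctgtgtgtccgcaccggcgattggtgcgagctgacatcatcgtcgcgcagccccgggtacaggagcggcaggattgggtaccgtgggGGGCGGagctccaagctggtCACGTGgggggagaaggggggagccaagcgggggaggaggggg
Klf4: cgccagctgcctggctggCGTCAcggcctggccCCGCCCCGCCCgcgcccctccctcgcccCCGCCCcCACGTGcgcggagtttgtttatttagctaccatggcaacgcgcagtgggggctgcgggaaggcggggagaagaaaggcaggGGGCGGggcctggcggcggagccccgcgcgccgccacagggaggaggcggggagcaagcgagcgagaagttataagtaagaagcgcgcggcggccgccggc
Klf9: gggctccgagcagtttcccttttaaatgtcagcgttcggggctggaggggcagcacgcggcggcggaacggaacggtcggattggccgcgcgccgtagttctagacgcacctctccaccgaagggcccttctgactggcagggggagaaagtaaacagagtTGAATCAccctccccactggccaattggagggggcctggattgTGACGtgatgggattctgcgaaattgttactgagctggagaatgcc

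The Klf6 stretch holds a GC box match 63 bases before the start and an E-box match 43 bases before it. The Klf4 stretch holds 4 GC box matches, between 217 and 101 bases before the start, with an E-box match at 182 bases and a TGACG match at 232 bases. The Klf9 stretch differs from both: it has no GC box match, and has an AP-1 match 89 bases and a TGACG match 46 bases before the start. RefSeq windows of 300 bases (250 before to 50 after the start) were found for 7 of the 10 members, all but Klf5, Klf10 and Klf16. GGGCGG is in 6 of these 7 windows and in 35.7% of all 32851 promoter windows searched, and CCACCC (the CACCC box) is in 4 and in 31.5%. TGACG is in 5 (20.8% of all windows), ACGTG, which lies inside CACGTG and was searched apart, in 3 (19.6%), CACGTG in 2 (7.15%) and TGANTCA in 1 (7.81%). TATAAA (13.6%), the interferon-stimulated element (3.44%), TGACGTCA, which holds TGACG (1.79%), and the CArG box (1.63%) have no match in the members' windows. A match is a description of letters, not a binding site.

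Levels are CPM, counts scaled to the same total in each library, with depths (M, 1e+06 reads) estimated at 15.5 to 21.0 M per Neuro2a library and 15.5 to 20.1 M per mouse library. Differences are on the log2(CPM + 0.5) scale, with the standard error (SE) of a limma fit to all genes, and a gene was tested where at least 0.5 CPM was reached in at least 6 Neuro2a or 3 mouse libraries (14398 and 18967 genes). Called means a Benjamini-Hochberg adjusted p under 0.05 over all those genes. Scn2a, the target, was at 3.09 ± 0.23 CPM in VP64-only and 4.61 ± 0.50 in CRISPRa cultures (SD, n = 6), and at 250.3 ± 18.8, 229.7 ± 28.7 and 271 ± 17.7 CPM in WT, Het and Het CRISPRa nuclei (SD, n = 3). The activator transcript differed between the library sets: its mean was 2550 CPM in set 7 and 349 in set 8 of the VP64-only cultures, and 1977 and 599.8 in the CRISPRa cultures. In the CRISPRa cultures mCherry-puromycin RNA averaged 5296 CPM (set 7) and 1727 CPM (set 8), and it is listed at 0 in the VP64-only cultures. Summed markers of sympathetic neuroblastoma reached 642 to 909 CPM in every Neuro2a library, and neuronal markers 2741 to 3182 CPM in every library of nuclei, where 4 weeks after injection the activator was at 5.21 ± 1.67 CPM in Het CRISPRa and listed at 0 elsewhere.

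Klf6, a widely expressed activator studied as an injury-response gene and tumour suppressor, had the highest level per kilobase of exon among the 9 members in Neuro2a, and its level in CRISPRa cultures was well above that of VP64-only cultures in both library sets. In set 7 the VP64-only cultures held 155, 148 and 143 CPM and the CRISPRa cultures 276, 266 and 298. In set 8 the VP64-only cultures held 159, 158 and 161 CPM and the CRISPRa cultures 299, 283 and 298. Every CRISPRa library thus lay above every VP64-only library, with a gap from 161 to 266 CPM. The ratio of means was 1.88 in set 7 and 1.84 in set 8, and the overall difference was 0.89 ± 0.05 on the log2 scale (SE). Leaving out any 1 library gave 0.87 to 0.91. Klf6 was chosen for its consistency in this contrast, so neither the gap nor this range is an independent sign of stability.

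Klf10, the TGF-beta inducible early gene product that represses through Sin3, also lay higher in every CRISPRa library than in every VP64-only library, but by very different amounts in the sets. Set 7 held 32.0, 33.9 and 36.3 CPM without the guide and 107, 113 and 129 with it, a ratio of 3.42. Set 8 held 44.4, 50.2 and 46.8 CPM without the guide and 58.6, 58.6 and 58.5 with it, a ratio of 1.24. The guide-treated cultures of set 7 were therefore the highest and those of set 8 sat only just above their controls, and the overall difference of 1.03 ± 0.22 (SE) averages both. Klf6 and Klf10 were the 2 of 8 members above the minimum level whose groups did not overlap over both sets, a property 5.74% of all genes show in the higher and 3.01% in the lower direction. Because the members were drawn up from this contrast, nothing is read from this count.

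**Figure D1:**
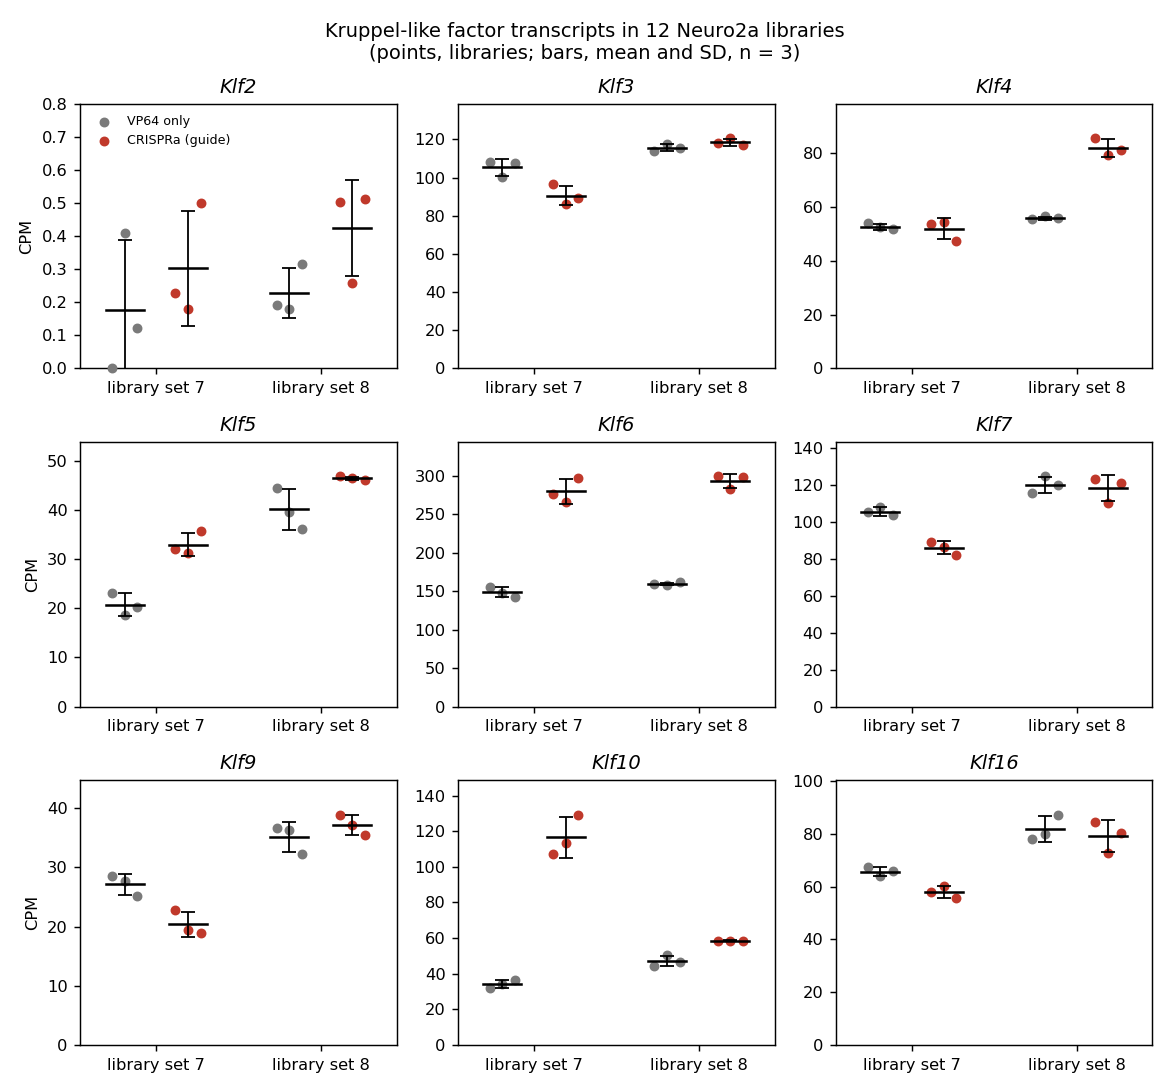
CPM of the 9 Kruppel-like factor genes listed for Neuro2a (y axis, from 0, 1 panel per gene) in each library by library set and group (x axis), with grey points for VP64-only and red points for CRISPRa cultures, and bars for the mean and SD of 3 libraries. Klf6 is higher with the guide by like ratios in both sets (ratios 1.88 and 1.84), Klf10 mainly in set 7 (3.42 against 1.24) and Klf4 in set 8 (0.985 in set 7, 1.47 in set 8).

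Among the other activators, Klf5, a promoter of proliferation in epithelial and muscle cells, was at 23.2, 18.6 and 20.3 CPM without and 32.1, 31.2 and 35.7 with the guide in set 7, and at 44.5, 39.6 and 36.2 without and 46.8, 46.4 and 46.1 with it in set 8. The guide-treated libraries lay above the controls within each set, yet the set 7 CRISPRa libraries lay below the set 8 controls. Klf4, a pluripotency factor that restrains axon growth, was at 53.9, 52.4 and 51.7 CPM without and 53.6, 54.6 and 47.5 with the guide in set 7, and at 55.4, 56.5 and 55.8 without and 85.6, 79.2 and 81.1 with it in set 8. Only the 3 CRISPRa libraries of set 8 stood apart from the other 9. Klf7, a neuronal activator needed for expression of the nerve growth factor receptor TrkA, was at 105, 108 and 103 CPM without and 89.2, 86.6 and 82.0 with the guide in set 7, a ratio of 0.815, while in set 8 the groups overlapped at 116 to 124 CPM without and 110.1 to 123 CPM with it. Klf2, the shear-stress-induced factor of endothelium and regulator of T cell quiescence, was between 0 and 0.512 CPM, at most 9 reads, and did not reach the minimum for a test.

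The repressors other than Klf10 were lower with the guide in set 7 and overlapped in set 8. Klf9, induced by thyroid hormone and glucocorticoids and a brake on axon growth, was at 28.5, 27.7 and 25.2 CPM without and 22.7, 19.4 and 19.0 with the guide in set 7, a ratio of 0.751. In set 8 it was at 36.7, 36.4 and 32.3 CPM without and 38.9, 37.2 and 35.5 with it. Klf16, a Sin3-binding repressor also described as a regulator of dopamine receptor genes, had a ratio of 0.880 in set 7 (63.9 to 67.3 CPM without and 55.6 to 60.2 with the guide) and 0.970 in set 8 (78.0 to 87.3 and 72.8 to 84.6). Klf3, which represses through CtBP, had a ratio of 0.860 in set 7 (100.1 to 108 CPM without and 86.3 to 96.4 with the guide) and 1.02 in set 8 (114 to 118 and 117 to 121). The 4 members Klf3, Klf7, Klf9 and Klf16 thus had separate groups in set 7 in the lower direction and overlapping groups in set 8. Over all genes the groups were separate in set 7 for 19.6% in the lower and 34.6% in the higher direction, and in set 8 for 16.5% and 21.9%, and nothing is read from the members' count. Over both sets the log2 differences were 0.44 ± 0.22 for Klf5, 0.26 ± 0.14 for Klf4, -0.09 ± 0.09 for Klf3, -0.11 ± 0.12 for Klf16, -0.16 ± 0.10 for Klf7 and -0.16 ± 0.19 for Klf9 (SE), and the median of the 8 members, 0.09, lay beside a median of 0.06 over all genes tested.

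The authors' deposited table of this contrast gives log2 fold changes of 0.83 ± 0.06 for Klf6 and 1.03 ± 0.21 for Klf10 (its standard errors). For the other members tested here the authors' deposited table runs from -0.20 for Klf7 to 0.33 for Klf5.

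Whether the guide contrast differs between the library sets is a separate quantity from the contrast that led to this set of genes, and it was tested as an interaction in limma. It passed the threshold for 6 of 8 members. The contrast was higher in set 8 for 4 of them, where 9.42% of all genes were called in that direction, and lower in set 8 for 2, where 12.3% of all genes were called. Klf10 had the largest value among the members, with a guide contrast of 1.76 in set 7 and 0.31 in set 8 and a difference of -1.44 ± 0.09 (SE, limma adjusted p = 4.24e-09). Klf4 went the other way, from -0.02 to 0.55, a difference of 0.57 ± 0.08 (limma adjusted p = 4.24e-05). Klf9 went from -0.41 to 0.08, a difference of 0.49 ± 0.11 (limma adjusted p = 0.0044), and Klf5 from 0.66 to 0.21, a difference of -0.45 ± 0.12 (limma adjusted p = 0.0107). Klf7 went from -0.29 to -0.02 (0.27 ± 0.07, limma adjusted p = 0.00937) and Klf3 from -0.22 to 0.04 (0.25 ± 0.07, limma adjusted p = 0.0113), so both lay below the controls in set 7 and beside them in set 8.

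For Klf6 and Klf16 the interaction did not pass. The Klf6 difference between sets was -0.03 ± 0.06 with a 95% confidence interval of -0.16 to 0.10 (limma adjusted p = 0.766). Choosing Klf6 for its consistency favours a small value here, so it is no independent sign of stability. Klf16 had 0.14 ± 0.08 with an interval of -0.04 to 0.31 (limma adjusted p = 0.255). The activator and mCherry-puromycin transcripts were lower in set 8 than in set 7 of the CRISPRa cultures, as given above, and their part in these differences was not tested. All 6 calls held in each of 19 alternative analyses, among them the omission of any 1 library and a replicate block, and Klf6 and Klf16 were called in none of them.

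**Figure D2:**
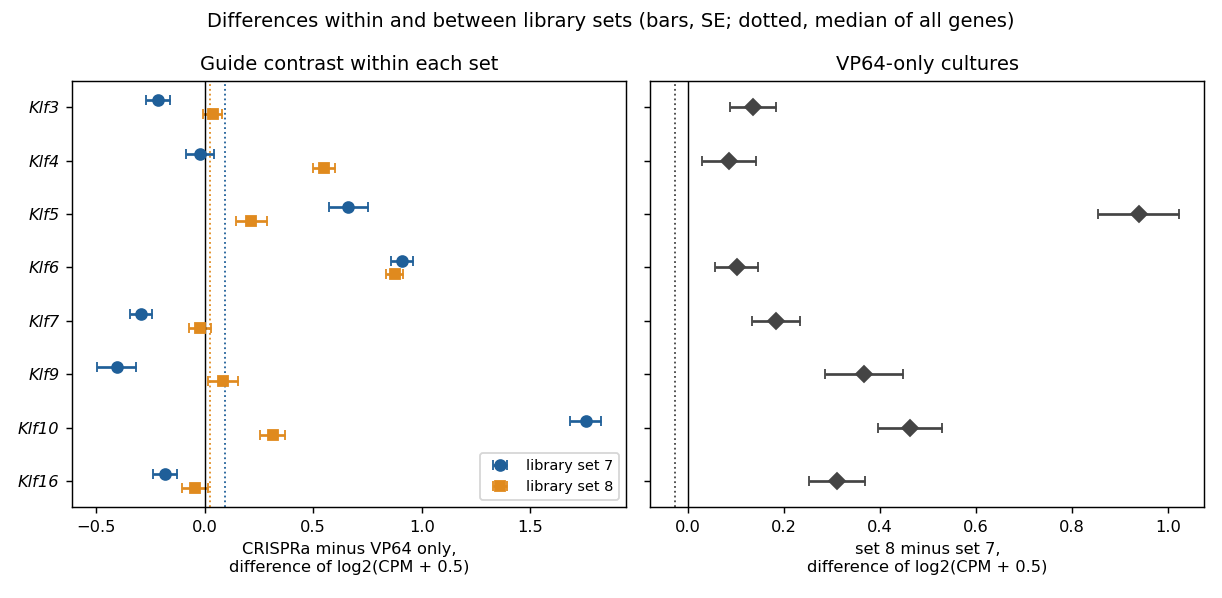
Left, the CRISPRa minus VP64-only difference of log2(CPM + 0.5) (x axis) for the 8 members tested (y axis) within library set 7 (circles) and set 8 (squares); right, the set 8 minus set 7 difference in the VP64-only cultures (diamonds). Bars are the SE and dotted lines the median of all genes; the Klf6 marks of both sets nearly coincide at 0.91 and 0.88, the Klf10 marks lie at 1.76 and 0.31, and all 8 diamonds lie above 0.

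Without any guide, the members were higher in set 8 than in set 7. In the VP64-only cultures 6 of 8 members passed as higher, where 19.9% of all genes were called, and none as lower, where 25.9% were. All 8 had groups that did not overlap in the higher direction, against 24.2% of all genes (30.3% in the lower direction). Klf5 rose from 20.7 ± 2.3 to 40.1 ± 4.2 CPM (SD, n = 3), a difference of 0.94 ± 0.08 (SE, limma adjusted p = 1.95e-08). Klf10 rose by 0.46 ± 0.07 (limma adjusted p = 1.03e-05), Klf9 by 0.37 ± 0.08 (limma adjusted p = 0.000908), Klf16 by 0.31 ± 0.06 (limma adjusted p = 0.000211) and Klf7 by 0.18 ± 0.05 (limma adjusted p = 0.005).

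Klf3 rose by 0.14 ± 0.05 (limma adjusted p = 0.0248), a call that ended without VP64-only replicate 2 (0.10, adjusted p = 0.138), replicate 5 (0.12, adjusted p = 0.0834) or replicate 6 (0.14, adjusted p = 0.0525), and with no filter on low values (adjusted p = 0.0551). Klf6 (0.10 ± 0.04, limma adjusted p = 0.0712) and Klf4 (0.09 ± 0.06, limma adjusted p = 0.228) did not pass, and Klf6 passed without VP64-only replicate 1 (0.13, adjusted p = 0.035) and when the CPM were rescaled by the median of ratios (0.13, adjusted p = 0.0227) or by quantiles (0.16, adjusted p = 0.00967). The interaction and this comparison share the VP64-only libraries. For Klf5 and Klf9 the difference between sets in the control cultures, 0.94 and 0.37, stood beside guide contrasts of 0.66 and -0.41 in set 7. The activator transcript was at 2550 CPM in the set 7 and 349 in the set 8 control cultures, and its part in these differences was not tested.

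Per kilobase of exon (union of GENCODE M21 exons), the VP64-only order was Klf6 35.1 ± 1.6, Klf16 27.6 ± 3.5, Klf4 17.8 ± 0.6, Klf7 13.9 ± 1.0, Klf3 9.83 ± 0.58, Klf10 9.72 ± 1.80, Klf9 6.47 ± 0.99, Klf5 5.85 ± 2.13 and Klf2 0.11 ± 0.08 CPM per kilobase (SD, n = 6). Klf6 overlapped Klf16, Klf3 overlapped Klf10, and Klf9 overlapped Klf5. Overlap here compares the ranges over all libraries of a group, not genes within the same library. By set, Klf6 averaged 33.9 and Klf16 24.6 CPM per kilobase in set 7, and 36.4 and 30.6 in set 8. The other pairs changed order between the sets. In set 7 Klf3 was at 9.36 and Klf10 at 8.15, and Klf9 at 5.63 and Klf5 at 3.98. In set 8 they were at 10.3 and 11.3, and at 7.30 and 7.71. In the CRISPRa cultures Klf6, at 65.3 ± 3.1 CPM per kilobase, no longer overlapped Klf16, at 25.7 ± 4.6, and Klf10, at 21.0 ± 7.8, overlapped Klf4, at 22.0 ± 5.5. Each neighbour pair from Klf16 down through Klf4, Klf10, Klf7, Klf3 and Klf5 to Klf9 overlapped there, and Klf2 lay apart below the rest in both groups.

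The genes whose levels followed Klf6 most closely over the 12 Neuro2a libraries, by the root mean square difference of centred log2(CPM + 0.5) among 11058 genes with a mean of at least 2 CPM, were Mvp (0.0836), Plin2 (0.104), Znfx1 (0.131), Stmn4 (0.133) and Hpse (0.134). Klf6 itself has an SD of 0.45 on that scale. Mvp, the major vault protein, was at 45.0 ± 2.3 CPM in VP64-only and 80.7 ± 5.1 in CRISPRa cultures, and Plin2, a coat protein of lipid droplets, at 83.4 ± 7.1 and 168 ± 12.4 (SD, n = 6). No other member was near: the closest, Klf4, had 0.386 and Klf10 0.408. These libraries share depth, library set and the guide contrast, and likeness is a description with no test.

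The 5 lists of genes around the family, chosen with earlier results of these data known, were read in the same Neuro2a contrast, where 10.0% of all genes were called higher and 5.02% lower (19.9% and 11.4% with the replicate number as a block). Of 4 other Klf genes tested, 1 fell: Klf12, a CtBP-binding repressor, went from 6.08 ± 0.70 to 3.32 ± 0.44 CPM (SD, n = 6), a difference of -0.78 ± 0.11 (SE, limma adjusted p = 0.000835), and was lower in both sets (-0.89 and -0.68). Of 7 Sp genes, 1 fell: Sp9, a factor of developing interneurons, by 0.31 (limma adjusted p = 0.00806), with -0.37 in set 7 and -0.25 in set 8, where it did not pass alone (adjusted p = 0.0712). Of 13 cofactors and ubiquitin ligases none passed, and the closest were Ncor1, a corepressor scaffold, at -0.23 ± 0.08 (limma adjusted p = 0.0646) and the corepressor Ctbp1 at -0.13 ± 0.06 (limma adjusted p = 0.169). The list medians were -0.09, -0.11 and 0.01, beside 0.06 over all genes. With the block, Sp genes had 3 falls and the cofactors 1 rise and 1 fall, and Ncor1 passed (adjusted p = 0.0275). It also passed with library set as a covariate (adjusted p = 0.00432), in set 7 alone (-0.43, adjusted p = 9.47e-07), and without CRISPRa replicate 4 (-0.28, adjusted p = 0.0255) or replicate 5 (-0.27, adjusted p = 0.0372). Ctbp1 passed with library set as a covariate (adjusted p = 0.0177), in set 8 alone (-0.21, adjusted p = 0.00167) and under median-of-ratios scaling (-0.18, adjusted p = 0.0235).

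Of 16 upstream regulators tested, 3 rose and 1 fell (4 and 2 with the block), with a list median of -0.07. Mef2c, Tgfbr2 and Thrb, also in this list, were not tested. Tgfb1, the growth factor that induces Klf10, rose from 14.1 ± 3.7 to 20.5 ± 1.4 CPM (SD, n = 6; 0.56 ± 0.15, limma adjusted p = 0.022), by 0.89 in set 7 and 0.23 in set 8, where it did not pass alone (adjusted p = 0.0751), and it did not pass under quantile scaling (0.45, adjusted p = 0.0638). The guide contrast differed between the sets by -0.66 ± 0.14 (limma adjusted p = 0.00163). Its VP64-only level also differed, at 10.8 ± 1.1 CPM in set 7 and 17.4 ± 0.5 in set 8 (SD, n = 3). That difference of 0.67 ± 0.10 (SE, limma adjusted p = 8.84e-06) enters the guide contrasts of the sets. The ERK5 kinase gene Mapk7 and Mrtfa, a coactivator of serum response factor, both rose by 0.23 (limma adjusted p = 0.036 and 0.0452), and each kept its call in only 3 of the 12 analyses that left out 1 library, with values of 0.20 to 0.27 and 0.19 to 0.26. Thra, the thyroid hormone receptor alpha gene, fell by 0.33 (limma adjusted p = 0.021) and was lower in both sets (-0.31 and -0.35).

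Of 12 reported Klf target genes 5 rose and 1 fell (6 and 1 with the block), with a list median of 0.38, where 10.0% of all genes were called higher and 5.02% lower. Cdkn1a, a cyclin-dependent kinase inhibitor and a reported target of Klf6 and Klf4, rose from 51.6 ± 2.8 to 78.1 ± 7.2 CPM (SD, n = 6; 0.59 ± 0.07, limma adjusted p = 0.000183), by 0.65 in set 7 and 0.53 in set 8. Ccnd1, cyclin D1, rose from 312 ± 9.2 to 466 ± 51.8 CPM (0.57 ± 0.07, limma adjusted p = 0.000272), and the chemokine gene Ccl5 from 7.96 ± 1.04 to 19.0 ± 1.9 CPM (1.21 ± 0.10, limma adjusted p = 1.69e-05). Lgals3, galectin 3, rose from 1.32 ± 0.33 to 5.94 ± 2.78 CPM (1.73 ± 0.26, limma adjusted p = 0.00103). Eng, the TGF-beta coreceptor endoglin, is named to complete the count after its values were seen, and rose from 108 ± 6.2 to 132 ± 10.2 CPM (0.29 ± 0.06, limma adjusted p = 0.00562). Cdkn1b, another cyclin-dependent kinase inhibitor, fell by 0.23 (limma adjusted p = 0.0099), with -0.35 in set 7 and -0.10 in set 8, where it did not pass alone (adjusted p = 0.084). These genes have many regulators, and their tie to the members in Neuro2a was not tested.

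In sorted cortical nuclei Klf6 was a mid-level member. Per kilobase, WT nuclei held Klf9 9.33 ± 1.5, Klf10 7.15 ± 1.02, Klf7 5.09 ± 0.32, Klf6 5.06 ± 0.70, Klf16 4.45 ± 0.43, Klf13 4.12 ± 0.29, Klf5 1.77 ± 0.14, Klf3 1.74 ± 0.07, Klf2 0.999 ± 0.258 and Klf4 0.138 ± 0.036 CPM per kilobase (SD, n = 3). Klf9 overlapped Klf10, Klf7 overlapped Klf6, Klf6 overlapped Klf16, Klf16 overlapped Klf13, and Klf5 overlapped Klf3. The restrainers of axon growth thus sat at opposite ends, with Klf9 the highest member and Klf4 the lowest. The Neuro2a and mouse tables were normalised separately, so the levels are not compared across them. The order within each differs: Klf9 was 7th of 9 in VP64-only cultures, overlapping Klf5, and 1st of 10 in WT nuclei, overlapping Klf10. One order is from cultured cells and the other from sorted nuclei, so cell type and nuclear RNA cannot be told apart in this difference.

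**Figure D3:**
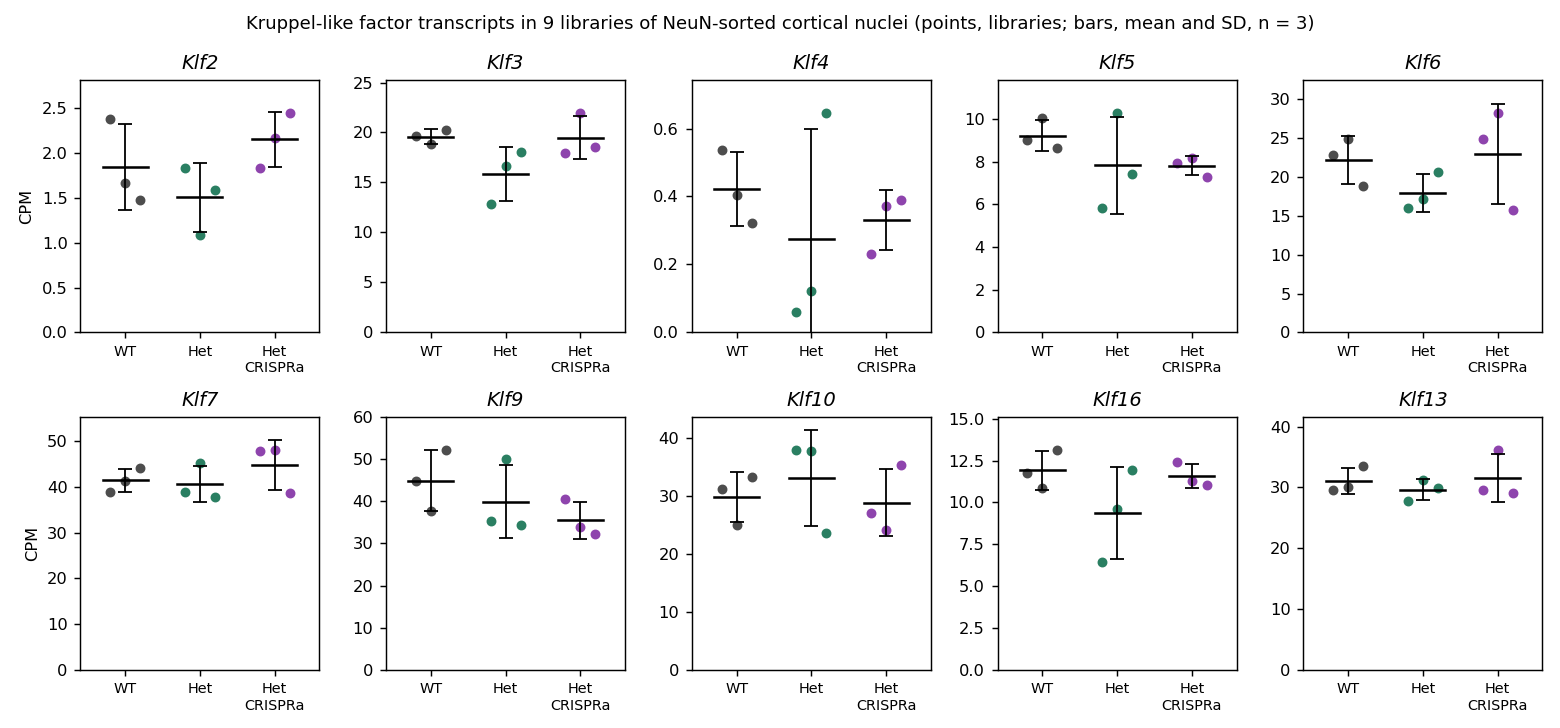
CPM of the 10 Kruppel-like factor genes (y axis, from 0, 1 panel per gene) in each library of NeuN-sorted cortical nuclei from WT, Het and Het CRISPRa mice (x axis), with bars for the mean and SD of 3 libraries. The groups overlap in nearly every panel; Klf3 is lower in all 3 Het libraries (12.8 to 18.0 CPM) than in the WT libraries (18.8 to 20.3 CPM).

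No member was called in any of the 3 mouse comparisons, which share libraries with one another. In Het against WT nuclei 0 of 9 members tested passed in limma, where 0% of all genes were called and 951 had an unadjusted p under 0.05. Klf6 was at 22.8, 24.9 and 18.9 CPM in WT and 15.9, 17.1 and 20.6 in Het nuclei, a difference of -0.30 ± 0.20 with a 95% interval of -0.75 to 0.14 (limma adjusted p = 0.875). The groups overlapped, with Het replicate 3 above WT replicate 3. In bulk nuclei, fewer nuclei of a type and less RNA per nucleus cannot be told apart.

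Klf3 was the 1 member whose Het and WT libraries did not overlap, at 19.6, 18.8 and 20.3 CPM in WT and 12.8, 16.7 and 18.0 in Het, a difference of -0.31 ± 0.15 (95% interval -0.65 to 0.03). Separate groups in the lower direction were found for 7.30% of all genes and in the higher direction for 3.37%, so 1 of 9 members is near the background. Klf16 was at 11.8, 10.8 and 13.1 CPM in WT and 6.46, 9.63 and 11.9 in Het (-0.37 ± 0.20, 95% interval -0.82 to 0.07), with Het replicate 1 the lowest. Klf10 was the 1 member with a positive value, 0.12 ± 0.20 (95% interval -0.31 to 0.56), at 31.3, 25.1 and 33.3 CPM in WT and 38.0, 37.9 and 23.6 in Het. The other members lay between -0.25 for Klf5 and -0.03 for Klf7, and the median of the 9, -0.22, stood beside -0.05 over all genes. Without 1 library at a time the Klf6 value ran from -0.41 to -0.22.

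In Het CRISPRa against Het nuclei 0 of 9 members passed in limma, where 0.0422% of all genes were called and 996 had an unadjusted p under 0.05. Klf6 was at 24.9, 28.3 and 15.7 CPM in Het CRISPRa, a difference from Het of 0.32 ± 0.20 with an interval of -0.13 to 0.76 (limma adjusted p = 0.81 or above for every member). Het CRISPRa replicate 3 was the lowest of all 9 libraries and replicate 2 the highest, and leaving out 1 library at a time moved the value between 0.15 and 0.56.

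Klf2, at 1.84, 1.09 and 1.59 CPM in Het and 1.84, 2.17 and 2.45 in Het CRISPRa, was the 1 member whose groups did not overlap (0.42 ± 0.26, 95% interval -0.15 to 0.98), and the nearest libraries of both groups agree to the digits given. Separate groups were found for 5.37% of all genes in the higher and 4.61% in the lower direction. Klf16 had 0.33 ± 0.20, Klf3 0.30 ± 0.15, Klf7 0.14 ± 0.12, Klf13 0.09 ± 0.13, Klf5 0.03 ± 0.20, Klf9 -0.15 ± 0.17 and Klf10 -0.18 ± 0.20 (SE), with a median of 0.14 over the 9 members and 0.04 over all genes.

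In Het CRISPRa against WT nuclei 0 of 9 members passed in limma, where 0.00527% of all genes were called and 335 had an unadjusted p under 0.05. Klf6 had a difference of 0.01 ± 0.20 with an interval of -0.43 to 0.46. Klf9 had the lowest value, at 44.9, 37.7 and 52.2 CPM in WT and 40.4, 33.8 and 32.2 in Het CRISPRa (-0.33 ± 0.17, 95% interval -0.69 to 0.03), with overlapping groups. Klf5 was the 1 member with separate groups, at 9.01, 10.0 and 8.62 CPM in WT and 7.93, 8.18 and 7.30 in Het CRISPRa (-0.23 ± 0.20), where 4.46% of all genes were separate in the lower and 2.68% in the higher direction. Klf2 had 0.19 ± 0.26, Klf7 0.11 ± 0.12, and Klf3, Klf10, Klf13 and Klf16 lay between -0.06 and 0.02.

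**Figure D4:**
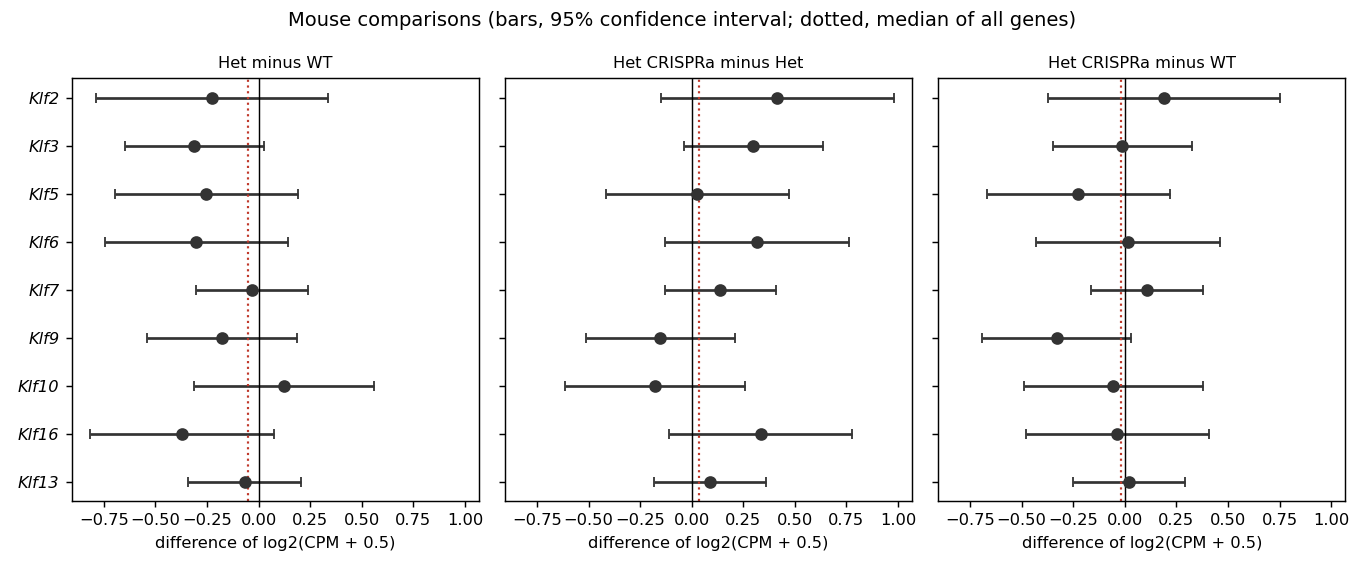
Differences of log2(CPM + 0.5) (x axis) for the 9 members tested (y axis) in Het minus WT, Het CRISPRa minus Het and Het CRISPRa minus WT nuclei. Points are the limma estimates, bars the 95% confidence interval and dotted lines the median of all genes; every interval includes 0.

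Klf4, at 0.0593 to 0.647 CPM in the nuclei (1 to 13 reads), did not reach the minimum for a test, and Klf13, a Sin3-binding repressor that acts on the Ccl5 gene in T cells, was at 27.7 to 36.1 CPM over the 9 libraries. Klf2 and Klf4 are known as factors of endothelium, whose summed markers with those of mural cells were 18.6 to 23.9 CPM in WT, 19.1 to 23.9 in Het and 17.7 to 20.5 in Het CRISPRa nuclei over 13 genes. Egfl7 and Esam made up most of the sum, with means of 9.99 and 6.06 CPM in WT and 8.22 and 6.21 in Het nuclei. Kdr, Pecam1 and Flt1 had means of 0.619, 0.615 and 0.458 CPM in WT and 1.02, 0.418 and 0.127 in Het nuclei, and Cdh5 and Slco1a4 are listed at 0 in every WT and Het library. In Het CRISPRa nuclei the means were 8.07 CPM for Egfl7, 6.10 for Esam, 0.688 for Kdr, 0.349 for Pecam1 and 0.464 for Flt1. Cdh5 and Slco1a4 reached at most 0.172 and 0.0557 CPM there. Summed microglial markers were 28.1 to 43.9, 30.8 to 50.2 and 32.8 to 37.8 CPM in the 3 groups, so both sums overlap between groups. Their part in the Klf2 values was not tested.

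In the authors' deposited tables for the mouse comparisons, the adjusted p of every member rounds to 1.0, and Klf6 has log2 fold changes of -0.26 ± 0.19, 0.32 ± 0.22 and 0.06 ± 0.20 in the order above (their standard errors, the first turned to Het minus WT). None of the genes of the 5 lists passed in limma in any mouse comparison, out of 4 other Klf genes, 6 Sp genes, 13 cofactors, 18 upstream regulators and 13 reported targets tested. The list medians lay between -0.14 and 0.16. The smallest unadjusted p among them belonged to Sp3, which binds the same GC-rich sites, at 63.9 ± 4.1 CPM in Het and 80.3 ± 5.0 in Het CRISPRa nuclei (SD, n = 3; 0.33 ± 0.10, limma adjusted p = 0.81).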

How the data were processed

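PolyA libraries of 12 Neuro2a cultures and 9 samples of sorted nuclei were grouped by their titles, genotype, treatment and library names in the labels. Per the submitters' processing notes, the tools included featureCounts, STAR 2.7.8a, R 4.4 and DESeq2 1.44 with the builds mm39 and GRCm39, and no role or order is given. Per the file headers, the deposited tables of levels hold CPM, and the tool that made them, strandedness and the handling of shared reads are not given in the sources used here. The authors' deposited comparison tables hold log2 fold changes with standard errors and adjusted p-values. Depth is the inverse of the commonest CPM value above 0. At that depth 70.8 to 73.2% of Neuro2a and 79.9 to 82.4% of mouse values lay within 0.01 of whole reads, so no count test was run, and Klf3 values were among those that were not whole.

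From the CPM, log2(CPM + 0.5) was computed and fitted with limma 3.58.1 in R 4.3.3 (lmFit, eBayes with trend). Genes with at least 0.5 CPM in 6 Neuro2a or 3 mouse libraries entered, the 2 transgene features were left out, and the Benjamini-Hochberg adjustment ran over all genes of a comparison. All mouse libraries shared 1 fit. The interaction and the control-culture comparison came from 1 fit with group by library set. Python 3.11.15 with pandas 2.3.3 and matplotlib 3.10.9 made the summaries and plots, and the fitting was tested on simulated data. Libraries with the same Neuro2a replicate number deviated together from their group means (correlations 0.305 to 0.499, all above 0.1), so a fit with the replicate number as a block was an alternative. The pairing rests on these values, and within a library set other numbers had 0.284 to 0.505, so the shared part follows the set. Other alternatives were pseudocounts, filters, scalings, library set terms and leaving out each library.

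The members and lists were chosen with earlier results of these data known. Named were all members, from each list up to 4 called genes per direction with the smallest p (where none passed, up to 2 with the smallest p), and the 5 genes most like Klf6. Lists: other Klf genes, Sp genes, Klf cofactors and ubiquitin ligases, upstream regulators and reported target genes. Promoters are from RefSeq on GRCm38.p6 and exon lengths from GENCODE M21, and no coordinates of the files' build were converted. Intervals have 95% confidence.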

Additional observations from a re-analysis of the deposited data

Results flagged for a closer look

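The guide contrast in Neuro2a differed between library set 8 and library set 7 for 21 of 23 genes looked at (interaction test in limma). These 23 were the 8 members tested and 15 list genes that had passed. Over all genes, 9.42% were called higher in set 8 and 12.3% lower. Among the members this was so for Klf10 (-1.44 on the log2 scale), Klf4 (0.57), Klf9 (0.49), Klf5 (-0.45), Klf7 (0.27) and Klf3 (0.25). The 2 that did not pass were Klf6 and Klf16. Tested in the lists were 4 other Klf genes, 7 Sp genes, 13 cofactors and ubiquitin ligases, 16 upstream regulators and 12 reported targets. The 15 list genes were included because they had passed this same test, so their number says nothing about the lists. Among the cofactors these were Ncor1 (0.39), Crebbp (0.34), Hdac1 (-0.19) and Ctbp1 (-0.17). Among the upstream regulators they were Tgfb1 (-0.66), Mef2d (0.38), Mrtfb (0.32), Srf (0.29) and Mef2a (0.25). Among the reported targets they were L1cam (0.48), Ccnd1 (-0.35), Eng (-0.27) and Cdkn1b (0.25), and among the relatives Klf11 (0.40) and Sp1 (0.20). Of the 12 analyses without 1 library, the call held in 4 for Ctbp1 (-0.20 to -0.14) and for Hdac1 (-0.23 to -0.16), in 5 for Sp1 (0.16 to 0.24) and for Mrtfb (0.26 to 0.37), in 8 for Srf (0.22 to 0.33), and in all 12 for the other 10 list genes.

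The Mapk7 level in VP64-only replicate 5, 45.0 CPM, stood apart from the other 5 VP64-only libraries, at 37.1 to 39.0 CPM, by Dixon's criterion. It was the 1 such library among 88 groups looked at, and chance flags about 1 in 20.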

How the results depend on the processing

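In the comparisons tested for the members, no call of a member reversed under any alternative. In the Neuro2a guide contrast 2166 genes were called, and 4513 with the replicate block, 5685 with library set as covariate, 6684 in set 7 alone and 3490 in set 8 alone. Without 1 library at a time there were 1492 to 2404 calls. The split of higher to lower calls was 1443 to 723, against 1085 to 1078 under median-of-ratios scaling and 1058 to 1015 under quantile scaling. For the difference between sets the split was 1357 to 1775 of 3132 calls, against 1760 to 1326 and 1534 to 1428 under these scalings, and 2918 genes were called with the replicate block, which was added after seeing the data. The Klf10 and Klf4 guide contrasts moved by more than the spread between libraries in each set alone (1.76 and 0.31, -0.02 and 0.55). The other 172 of 176 alternative values of the members did not. Het minus WT had 0 calls (2 with the replicate block, 0 to 1 without 1 library, the 1 without Het replicate 1). Het CRISPRa minus Het had 8 calls, and 2 with no filter, 2 with a filter of 2 CPM, 5 with only the compared groups in the fit, 31 with the replicate block and 0 to 38 without 1 library (38 without Het replicate 3). Het CRISPRa minus WT had 1 call, and 0 with a pseudocount of 0.1 CPM, with a filter of 2 CPM, with the replicate block and without any 1 of the 6 libraries compared (0 to 0). Same-numbered mouse libraries had correlations of -0.110 (Het CRISPRa and WT replicate 3) to 0.418 (Het and WT replicate 3). Libraries with other numbers had -0.427 to 0.243, so the ranges overlap and do not settle whether the numbers pair the mice. The block changed no member's call there. Where an arm was left with 2 libraries, the spread was pooled over groups. No scaling moved the median of all genes by over 0.1, and no member was called in any mouse alternative. Klf2 in Neuro2a and Klf4 in the nuclei are limited by depth, at no more than 9 and 13 reads. The cause of the moved counts was not tested, apart from the fewer libraries or genes in some fits.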

Other observations

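Klf15, a glucocorticoid-induced member, was at 10.7 to 19.0 CPM in the 9 libraries of nuclei and at 0.222 to 1.57 CPM in Neuro2a, where it was tested in the control cultures and was higher in set 8 (1.22 ± 0.38 CPM) than in set 7 (0.427 ± 0.174 CPM; SD, n = 3; limma adjusted p = 0.016). Klf15 did not reach the minimum for a test in set 7 alone. It therefore entered mainly through set 8 libraries, where it is higher, and nothing is read from its call. Leaving out 1 VP64-only library at a time gave 0.73 to 1.06 on the log2 scale. The call ended without replicate 2 (limma adjusted p = 0.0614), without replicate 4 (0.0764) and with no filter on low values (0.0584). Klf11, a Sin3-binding repressor close to Klf10, was at 33.9 to 47.4 CPM in Neuro2a and 2.73 to 6.49 CPM in the nuclei. Without the guide it was lower in set 8 (34.5 ± 0.8 CPM) than in set 7 (44.9 ± 3.3 CPM; SD, n = 3; limma adjusted p = 7.19e-05), the direction opposite to that of the 8 members. The tables were normalised separately, so these levels are given side by side and not compared.

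In the nuclei Klf6 and Klf10 split the libraries in opposite ways, whatever their group. The 4 libraries lowest in Klf6, at up to 18.9 CPM, were Het CRISPRa replicate 3, Het replicates 1 and 2 and WT replicate 3. The same 4 were the highest in Klf10, at 33.3 CPM or more, where the other 5 reached at most 31.3 CPM. The full order was not opposite: Het replicate 3, the lowest in Klf10 at 23.6 CPM, was 5th lowest in Klf6 at 20.6 CPM. The split was seen in the data and has no test.

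The genes most like Klf6 over the 9 libraries of nuclei, by the same measure as in Neuro2a and among 12203 genes, were Ctif (0.0738), Ak5 (0.0777), Fam135b (0.079), Eif1a (0.0944) and Lypd1 (0.097), where the SD of Klf6 itself is 0.283. None of them is among the 5 found in Neuro2a. Ctif, a translation initiation factor of the cap-binding complex, was at 22.4 ± 3.1 CPM in WT, 18.1 ± 3.8 in Het and 23.2 ± 6.9 in Het CRISPRa nuclei (SD, n = 3). Klf10 ranked 11713th of the 12203.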
